A study of Homo sapiens with 30 samples.

Results

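Accessible chromatin was examined around 31 genes of glycolysis and glucose transport in VCaP and LNCaP, both of them long-established androgen-responsive lines from human prostate tumours. The genes were 4 glucose transporters, 2 hexokinases, 7 genes of upper glycolysis, 4 enzymes that set fructose 2,6-bisphosphate, 6 genes of lower glycolysis, 2 lactate dehydrogenases, 2 monocarboxylate transporters, and a pyruvate dehydrogenase subunit with 3 of its kinases. A site belonged to a gene when its peak summit lay within 50 kb of the RefSeq gene body, so 1023 of the 443798 accessible regions found in the 30 libraries entered the set. Of these, 69 lay within 1 kb of a transcription start of a listed gene, 93 lay within 1 kb of the start of another gene, 266 were distal and inside a listed gene, and 595 were distal and outside it. Proximity defined the set, so no region is shown to act on the gene it is named with. The neighbourhoods of ENO2 and TPI1 overlap and share 14 regions.

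Chromatin was profiled by Omni-ATAC-seq, in which the transposase Tn5 cuts and tags open DNA. Cells of each line spent 48 hours in serum treated with charcoal and dextran (8%), which removes most steroid hormones. Vehicle or R1881, a synthetic androgen that cells break down slowly, was then given for 24 hours. LNCaP received vehicle, 0.03, 0.06, 0.1 or 10 nM (replicates 3, 4 and 5) and VCaP received vehicle, 0.01, 0.03, 0.06 or 10 nM (replicates 1, 2 and 4), with 3 libraries in each of the 10 groups. Each line stands for a single tumour-derived model. The labels do not say whether replicates came from separate cultures, so p-values measure the spread between these libraries, which may be technical.

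Glycolysis turns glucose into pyruvate. Glucose enters the cell through SLC2A transporters, hexokinases trap it as glucose 6-phosphate, and phosphofructokinase (PFKL, PFKM, PFKP) catalyses the committed step. Its activator, fructose 2,6-bisphosphate, is made and removed by the bifunctional PFKFB enzymes. Pyruvate kinase (PKM) makes pyruvate, which lactate dehydrogenase reduces to lactate for export by the SLC16A carriers, or which pyruvate dehydrogenase passes to the mitochondria unless PDK kinases block it. Normal prostate epithelium is known for a truncated citrate cycle that favours citrate secretion, and the androgen receptor is known to act mostly from distal enhancers.

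The 250 bases upstream of 3 starts are shown because the results turn on them: an internal HK1 start that gained a peak with androgen in LNCaP, the ENO2 start, which fell in rank, and the SLC2A1 start, which was at 97.4 with vehicle and 96.6 at 10 nM in LNCaP and was not called while sites inside the gene were. The sequences are RefSeq's on GRCh38.p14, on the gene's strand and 5′ to 3′, and capitals mark the GC box GGGCGG and the hypoxia response core ACGTG on either strand.
HK1, chr10:69315519-69315768, plus strand: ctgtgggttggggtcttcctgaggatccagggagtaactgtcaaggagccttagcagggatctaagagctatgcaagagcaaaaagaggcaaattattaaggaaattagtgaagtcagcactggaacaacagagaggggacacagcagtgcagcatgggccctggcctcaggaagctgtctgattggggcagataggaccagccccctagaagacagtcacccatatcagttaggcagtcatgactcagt
ENO2, chr12:6914330-6914579, plus strand: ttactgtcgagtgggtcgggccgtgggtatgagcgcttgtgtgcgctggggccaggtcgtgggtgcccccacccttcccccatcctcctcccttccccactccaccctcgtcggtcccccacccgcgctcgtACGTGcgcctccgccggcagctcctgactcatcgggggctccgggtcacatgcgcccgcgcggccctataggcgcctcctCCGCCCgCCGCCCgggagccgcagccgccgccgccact
SLC2A1, chr1:42958869-42959118, minus strand: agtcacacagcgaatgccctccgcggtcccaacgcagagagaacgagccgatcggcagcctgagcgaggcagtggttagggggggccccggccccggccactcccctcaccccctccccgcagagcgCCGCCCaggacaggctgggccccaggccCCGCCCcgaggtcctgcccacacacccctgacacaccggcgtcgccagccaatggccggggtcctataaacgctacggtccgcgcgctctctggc
The HK1 sequence holds 51.2% G and C and none of the motifs searched, the ENO2 sequence holds 74% with 2 GC boxes and 1 hypoxia core, and the SLC2A1 sequence holds 72.4% with 2 GC boxes. Both strands were searched for the androgen response element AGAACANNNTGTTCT and for its repeat unit AGAACA. The search also covered the forkhead motif TGTTTAC and the E-box CACGTG. The last motifs were the hypoxia core, which every match to this E-box contains, and the GC box. Among 34943 upstream sequences of the same length, these were found, in that order, in 0.00286%, 12.4%, 2.98%, 6.32%, 18.5% and 42.5%. A match is a description of letters, and a missing match says nothing about a factor.

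The value of a region in a library is the percentile rank of its best overlapping peak by −log10 p, from 0 (no listed peak) to 100 (the strongest), after lists were shortened to the same length within a line. Differences are in percentile points. A region was called when limma's moderated test, fitted over the 15 libraries of a line, gave a Benjamini-Hochberg adjusted p under 0.05 across all regions tested. The test covered regions that 3 or more of the 15 libraries listed, which left 508 of the 1023 in LNCaP and 433 in VCaP. Of these, 5 in LNCaP and 4 in VCaP had peaks at 10 nM alone, and their pass through the filter already implies a difference. A wide peak lends its rank to neighbouring regions, so calls were repeated with only peaks whose summit lies inside the region. Where that scoring ends or reverses the call of a named region, it is stated. Counts by gene are from the first scoring unless summits are mentioned.

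Read depth is unknown, but the background pileup recovered from the peak lists, a measure of relative depth, spanned 3.06 to 5.26 across LNCaP libraries. Vehicle replicates 1 and 2 of VCaP were the shallowest at 1.14 and 1.09, below the other VCaP libraries at 1.78 to 2.74. The 5 VCaP libraries numbered 2 stood apart, with median peak widths from 329 to 430 bp against 467 to 682 bp in the other VCaP libraries, and they are left out together below where a VCaP count rests on them. The listed genes had 378 to 565 peaks per LNCaP library and at least 316 per VCaP library. Among start peaks of markers, 7 of 8 luminal genes were listed in every LNCaP library and 6 to 7 of 8 in VCaP, with KRT8 never listed in LNCaP and KLK3 never in VCaP. Basal starts numbered 0 to 1 of 4 in both lines, stromal starts 2 to 3 and 1 to 3 of 6, endothelial starts 0 to 1 and 0 to 2 of 3, and immune starts 1 to 3 and 0 to 2 of 4, with PTPRC, TP63, COL1A1 and CDH5 at 0 throughout. These ranges overlapped between vehicle and 10 nM.

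Most transcription starts of the glycolytic genes were open in both lines, and few were called as changed with androgen. Of the 29 genes with a region at a start, 25 had a peak there in all 15 LNCaP libraries and 26 in all 15 VCaP libraries. The median rank of the strongest start region was at least 90 in 21 genes in LNCaP and in 16 in VCaP, and the median over genes was 94.3 and 90.7. LDHA, which makes lactate, was at 99.2 ± 0.248 in LNCaP vehicle and 98.4 ± 0.226 at 10 nM (SD, n = 3). PGK1, the first ATP-producing enzyme of the pathway, was at 98.9 ± 0.266 and 98.2 ± 0.551. No listed promoter was given for SLC2A3, SLC16A1 and PFKFB2, so gene ends were used for them, and SLC2A3 and PFKFB2 had no region there.

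**Figure D1:**
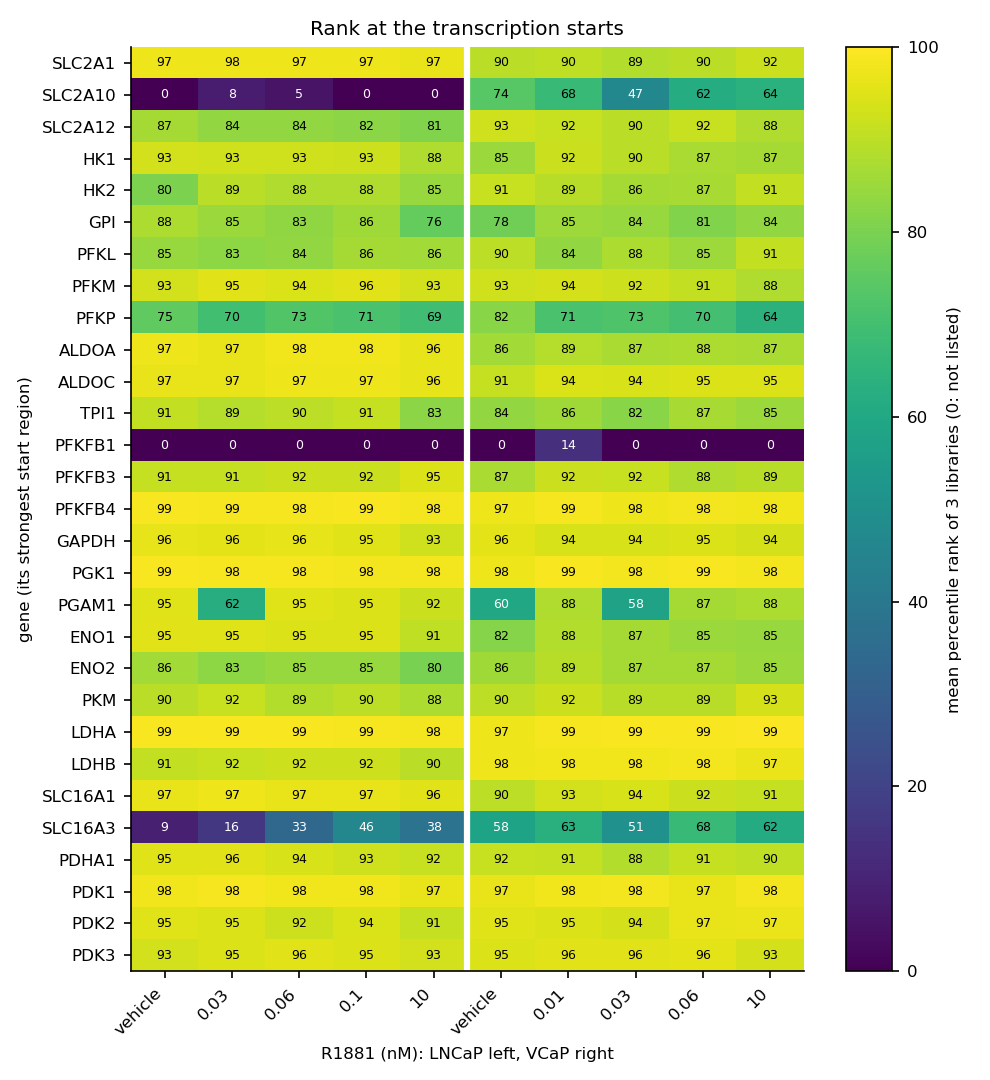
Mean percentile rank of 3 libraries (colour and printed number, 0 for not listed) at the strongest start region of each of 29 genes (vertical axis) in the 10 groups (horizontal axis, R1881 in nM, LNCaP left and VCaP right). Most cells lie above 80 in every group, while SLC2A10 and SLC16A3 are low in LNCaP and intermediate in VCaP, and PFKFB1 is at or near 0.

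Exceptions were few, and most lay between the lines. PFKFB1, a liver and muscle form of the bifunctional enzyme, had no start peak in any LNCaP library and a peak in 1 VCaP library. The start of SLC2A10, a glucose transporter of the endomembrane system, had a peak in 3 of 15 LNCaP libraries, with a highest rank of 15.7, and in 14 of 15 VCaP libraries, with a median of 67.4. SLC16A3, the lactate exporter typical of glycolytic cells, had a start peak in 12 LNCaP libraries, with a median of 34.4, and in all 15 VCaP libraries, with a median of 67.5. Its LNCaP rank was 8.84 ± 15.3 (SD, n = 3) with vehicle, 16.3 ± 17.3 at 0.03 nM, 33.4 ± 17.6 at 0.06 nM, 46.3 ± 5.93 at 0.1 nM and 38.1 ± 8.05 at 10 nM. The differences from vehicle at 0.1 nM (37.5 points, adjusted p = 0.0645) and 10 nM (29.2 points, adjusted p = 0.0855) did not pass the test. The levels of different lines come from lists shortened to different lengths and are given side by side without a test. At PGAM1 the start peak was unlisted in 1 LNCaP and 2 VCaP libraries, which accounts for the low means of 62 (LNCaP, 0.03 nM), 60 (VCaP vehicle) and 58 (VCaP, 0.03 nM) printed in the plot of start ranks.

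In LNCaP at 10 nM, 4 of 65 tested start regions were called, 1 higher and 3 lower, where 8.65% of all tested regions within 1 kb of a gene start were called. The region at an internal start of HK1, chr10:69314973-69315473, just upstream of the printed HK1 sequence, was unlisted in all 3 vehicle libraries and ranked 58.0, 48.0 and 59.3 at 10 nM, a rise of 55.1 points (SE 13.2, adjusted p = 0.00587). It ranked 63.2, 59.1 and 50.1 at 0.1 nM, also called, and no VCaP library had a peak there except 1 at 31.6. The start of ENO2, the neuronal enolase, ranked 85.5, 87.5 and 84.9 with vehicle and 77.2, 82.4 and 79.8 at 10 nM and fell by 6.16 points (SE 2.07, adjusted p = 0.0406). All 3 libraries at 10 nM lay below all 3 vehicle libraries, by a margin that is small on the scale. A second SLC16A3 start region, chr17:82236206-82236706, fell from 47.8, 45.2 and 57.8 to 21.9, 36.9 and 21.3, by 23.6 points (SE 8.20, adjusted p = 0.0475). The GAPDH start fell from 96.4 ± 0.205 to 92.7 ± 1.85 (adjusted p = 0.00778), but it shares a wide peak with 2 neighbouring regions and could not be tested by summits. In VCaP, 0 of 63 start regions were called at 10 nM by limma, with 3 at an unadjusted p under 0.05 and 1.85% called among all regions near starts. These 4 start regions were singled out after their values were seen.

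Distal sites held 87 of the 95 LNCaP regions called at 10 nM, and they were less often listed and of lower rank than starts. In LNCaP vehicle, 61.8% ± 7.57 (SD, n = 3) of the 365 tested distal regions had a peak, against 90.3% ± 1.78 of the 65 start regions, and the median ranks of those listed were 64.6 and 93.0. The distal share was 67.0% ± 2.09 at 0.03 nM, 71.1% ± 1.29 at 0.06 nM, 74.0% ± 1.42 at 0.1 nM and 74.0% ± 3.33 at 10 nM. All distal regions of the genome went from 59.0% ± 9.09 to 70.8% ± 1.56 between vehicle and 10 nM, so the listed genes moved with the rest. The lowest vehicle library, replicate 5, was at 53.2%, and the other vehicle libraries were at 65.2% and 67.1%. In VCaP the distal share was 61.2% ± 12.3 with vehicle and 67.7% ± 9.53 at 10 nM, and within each group the library numbered 2 was lowest, from 42.6% to 59.1% over the 5 groups. The group means of the median rank of listed distal regions lay between 58.5 and 64.6 in both lines. Over all distal regions of the genome they lay between 52.4 and 57.0, so peaks listed near these genes ranked somewhat higher in every group.

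**Figure D2:**
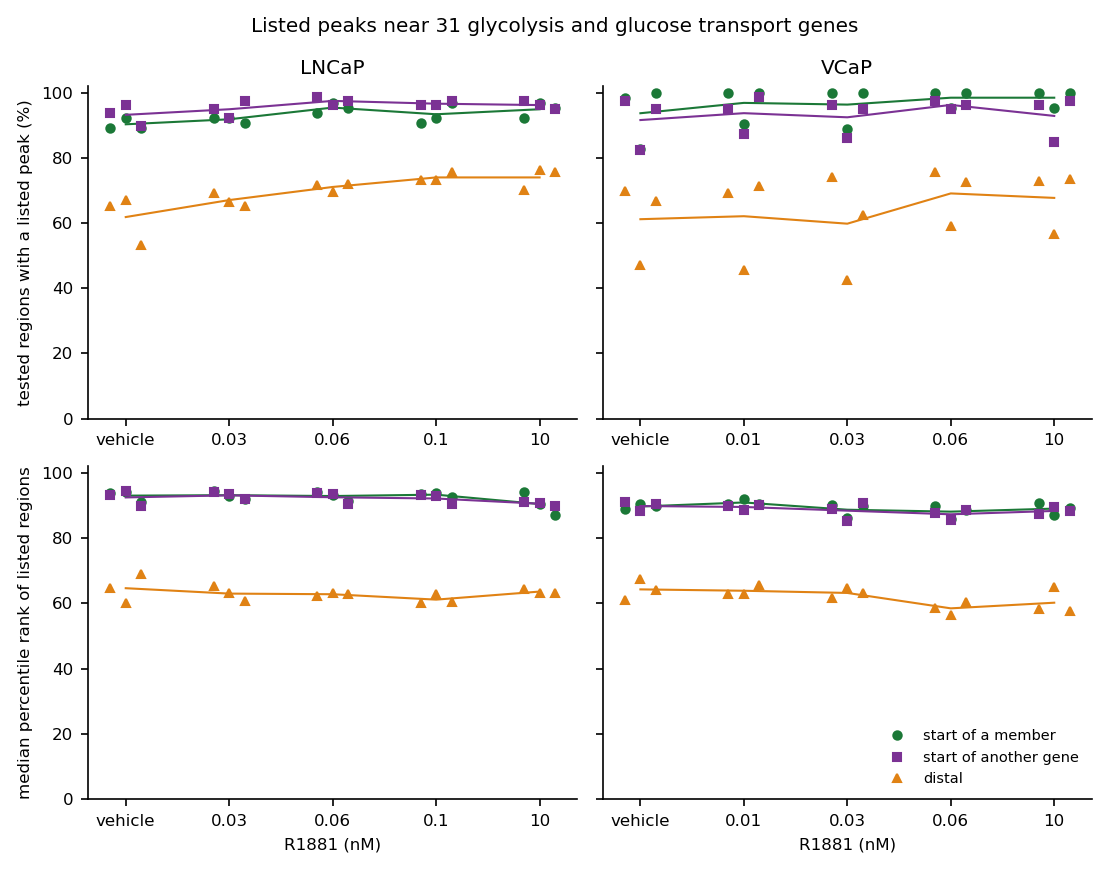
Share of tested regions with a listed peak (top, %) and median percentile rank of the listed regions (bottom) per library against R1881 dose (nM), for LNCaP (left) and VCaP (right); points are libraries and lines join group means. Start regions have the higher shares, distal regions lie lower, and in the top VCaP panel the library numbered 2 is the low distal point of each group.

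At 10 nM against vehicle in LNCaP, 62 regions near 26 of the 31 genes were higher and 33 regions near 15 genes were lower. That is 18.7% of the 508 tested regions, with 25.3% called among all 188359 regions. The higher share was 12.2% against 15.7%, and the lower share 6.50% against 9.62%, so the neighbourhoods of these genes were called no more often than the genome at large. By summits, 50 of the rises and 27 of the falls were also called. The median difference over the tested regions was -0.15 points, against -0.14 over all regions, while the called rises had a median of 39.4 points. Distal regions made up 59 of the rises and 28 of the falls, 23.8% of the 365 tested, with 27.9% called among all distal regions. PFKL, TPI1 and ENO1 had no called region in either direction, and 13 genes had both a rise and a fall. The split of rises to falls depends on the ranking: 94 to 9 with lists at full length, and 52 to 93 when peaks were ranked by fold enrichment. The nearest gene body was that of the listed gene for 30 of the 62 rises and 19 of the 33 falls. No such share over all 508 tested regions is given for comparison.

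**Figure D3:**
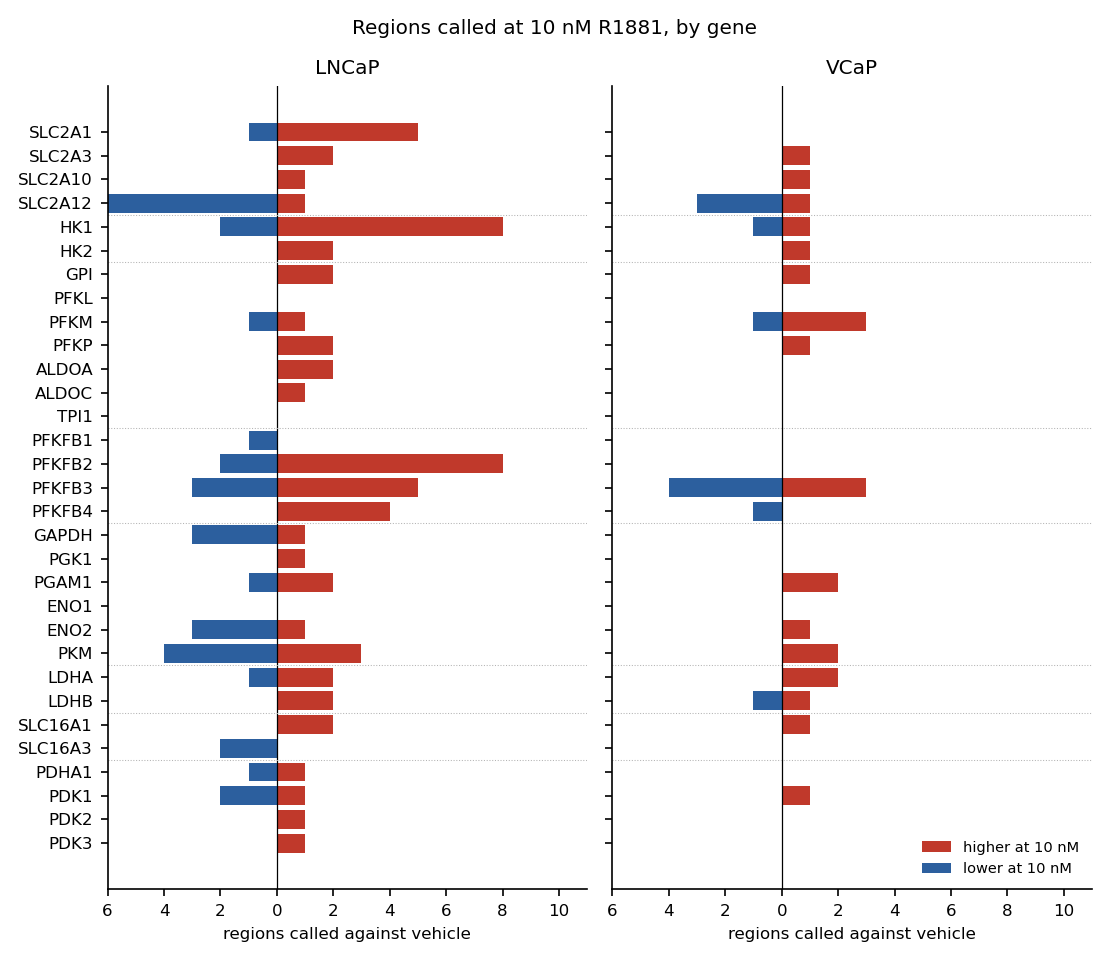
Number of regions called higher (red, right of 0) or lower (blue, left of 0) at 10 nM R1881 than with vehicle, by gene in order of role, in LNCaP (left) and VCaP (right). HK1 and PFKFB2 have 8 rises each and SLC2A12 has 6 falls in LNCaP, of which 5, 5 and 5 were also called by summits. PFKL, TPI1 and ENO1 have none in either line.

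Among the glucose transporters, 9 of 65 tested LNCaP regions rose (13.8%, with 15.7% among all regions) and 7 fell (10.8%, with 9.62%) at 10 nM. SLC2A1 encodes the transporter that supplies basal glucose uptake in most cells, and it had 5 rises and 1 fall, of which 3 and 1 were also called by summits. The largest difference of all, 96.4 points (SE 2.01, adjusted p = 4.9e-12), was inside the gene at chr1:42942274-42942774. There, no vehicle library had a peak and all 12 androgen libraries ranked from 95.0 to 97.8. With R1881 the listed peak also covered this region: the one starting at 42943161, less than 1 kb away, ranked 96.6 with vehicle and 96.4 at 10 nM, and by summits the call was lost. Another site inside SLC2A1, chr1:42937740-42938240, was unlisted in all 12 LNCaP libraries with vehicle or low doses and ranked 61.8, 56.5 and 66.5 at 10 nM. It is 1 of 5 LNCaP regions with peaks at 10 nM alone, so it had to differ, and its values are given without a test. Upstream of the gene, chr1:42996303-42996803 moved the other way, from 86.0, 85.7 and 74.1 with vehicle to 41.0, 11.1 and 0, and fell by 64.6 points (SE 10.3, adjusted p = 0.000295).

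SLC2A12, a transporter found in muscle and prostate, had 1 rise and 6 falls, of which 1 and 5 were also called by summits. The rising site, chr6:134076878-134077378, lay 24.5 kb outside the gene. It was unlisted with vehicle and at 0.03 nM, ranked 47.9, 44.2 and 7.75 at 0.06 nM, 52.7, 65.4 and 37.6 at 0.1 nM and 79.9, 86.8 and 82.7 at 10 nM, and rose by 83.1 points (SE 10.7, adjusted p = 4.98e-05) over vehicle. At 38.9 kb, chr6:134091270-134091770 ranked 23.8, 40.01 and 56.0 with vehicle and was unlisted at 10 nM, a fall of 39.9 points (SE 8.82, adjusted p = 0.00346). It was also unlisted at 0.03 nM but had peaks in all 3 libraries at 0.06 nM, so the doses between were not in order. A further fall of 19.3 points (SE 4.68, adjusted p = 0.0109) between the low doses and 10 nM, at chr6:133978205-133978705, was lost by summits.

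SLC2A3, a high-affinity transporter, and SLC2A10 had rises only. Inside SLC2A3, chr12:7933031-7933531 ranked 42.4, 59.3 and 48.4 with vehicle and 88.4, 87.6 and 90.4 at 10 nM, and rose by 38.7 points (SE 5.16, adjusted p = 6.59e-05). Inside SLC2A10, chr20:46715299-46715799 went from 75.5, 60.9 and 58.4 to 96.8, 95.9 and 96.8, a rise of 31.6 points (SE 3.93, adjusted p = 3.86e-05). Both had been listed in every vehicle library, so these were gains in rank and not new peaks. The SLC2A10 start was unlisted in all 3 LNCaP libraries at 10 nM, so the gain inside the gene went with no listed start peak. Both sites were chosen after their values were seen.

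The hexokinases catalyse the first step, and 10 of their 44 tested regions rose (22.7%, with 15.7% among all regions) while 2 fell (4.55%, with 9.62%). By summits, 6 of the rises and both falls were also called. HK1, the widely expressed form, had 8 rises, but several share a wide peak: 3 of them lie side by side 46.6 to 47.8 kb upstream, nearer to HKDC1, and 2 that abut inside the gene were lost by summits. Inside HK1, chr10:69330483-69330983 was unlisted in the 12 LNCaP libraries with vehicle or low doses and ranked 31.2, 39.3 and 43.8 at 10 nM, and it too entered the test only through the libraries at 10 nM. The reverse was seen at chr10:69345350-69345850, also inside the gene, where 80.2, 86.0 and 70.3 with vehicle became 46.1, 38.2 and 54.4 at 10 nM, a fall of 32.6 points (SE 6.17, adjusted p = 0.0011). That site had a peak in all 15 LNCaP libraries and in no VCaP library. HK2, the inducible hexokinase of many tumours, had 2 adjoining rises inside the gene at low rank, of which chr2:74867661-74868161 was unlisted with vehicle and ranked 23.4, 14.3 and 21.6 at 10 nM (adjusted p = 0.0351, chosen after its values were seen).

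In upper glycolysis, 8 of 116 tested LNCaP regions rose (6.90%, with 15.7% among all regions) and 1 fell (0.862%, with 9.62%). At PFKP, the platelet form of phosphofructokinase, chr10:3051801-3052301 lay 15.5 kb from the gene. It was unlisted with vehicle and at 0.03 nM, and ranked 10.4, 33.7 and 22.2 at 0.1 nM and 67.8, 62.0 and 65.1 at 10 nM. The rise over vehicle was 65.0 points (SE 9.60, adjusted p = 0.000156). Near PFKM, the muscle form, chr12:48151137-48151637 was unlisted with vehicle and ranked 65.1, 37.5 and 24.6 at 10 nM, a rise of 42.4 points (SE 8.22, adjusted p = 0.00132), and its nearest gene is ASB8. Near ALDOA, an aldolase, chr16:30104449-30104949 ranked 0, 27.0 and 0 with vehicle and 76.1, 82.9 and 81.5 at 10 nM and rose by 71.1 points (SE 11.7, adjusted p = 0.000379). This region lies at the start of GDPD3, 34.3 kb from ALDOA. At ALDOC, the brain aldolase, chr17:28535522-28536022 was unlisted with vehicle and ranked 44.6, 69.0 and 63.8 at 10 nM, a rise of 59.1 points (SE 11.4, adjusted p = 0.00127). GPI, which isomerises glucose 6-phosphate, had a site with the highest rank among the rises, chr19:34310488-34310988, at 91.6, 89.4 and 93.3 with vehicle and 98.6, 99.3 and 99.2 at 10 nM (adjusted p = 1.76e-05, chosen after its values were seen). It lies 49.0 kb from GPI and nearer to GARRE1.

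The PFKFB enzymes, which make and remove the activator of phosphofructokinase, had 17 rises (21.0%, with 15.7% among all regions) and 6 falls (7.41%, with 9.62%) in 81 tested regions, of which 13 and 5 were also called by summits. PFKFB2, the form known in heart and reported as an androgen-responsive gene in prostate cancer cells, had 8 of the rises, 5 of them also called by summits. All 8 lay upstream of the gene, nearer to C1orf116, and some share a wide peak. At chr1:207009943-207010443, 24.2 kb away, the vehicle libraries ranked 43.7, 39.1 and 65.4 and those at 0.03 nM already ranked 85.2, 82.6 and 83.9. At 10 nM they ranked 92.2, 95.3 and 97.1, and the rise over vehicle was 45.5 points (SE 4.65, adjusted p = 7.84e-06). At chr1:207004859-207005359, ranks of 65.1, 59.9 and 57.1 with vehicle became 90.1, 92.1 and 91.3, a rise of 30.5 points (SE 3.01, adjusted p = 5.8e-06). All treated libraries lay above all vehicle libraries at both sites. By contrast chr1:207027857-207028357, 6.31 kb from the gene, ranked 61.6, 58.7 and 60.6 with vehicle and 26.7, 46.3 and 38.1 at 0.1 nM and was unlisted at 10 nM, a fall of 60.3 points (SE 7.81, adjusted p = 5.33e-05).

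PFKFB4, a form first known from testis, had 4 rises, 3 of them also called by summits, and no fall. At chr3:48577123-48577623, 14.2 kb outside and nearer to COL7A1, 11 of the 12 libraries with vehicle or low doses were unlisted, 1 at 0.06 nM ranked 8.3, and those at 10 nM ranked 67.8, 67.3 and 69.8. The rise was 68.3 points over vehicle and 67.4 points over the low doses. Both are given without a test, since the region passed the filter only through the libraries at 10 nM. PFKFB3, the form with the strongest kinase activity, had 5 rises and 3 falls. Its highest-ranking rise lay deep inside the gene at chr10:6255430-6255930, from 87.6, 88.1 and 90.3 to 95.5, 95.8 and 97.0 (adjusted p = 6.76e-05, chosen after its values were seen). A fall at chr10:6364849-6365349, from 83.7, 84.4 and 82.3 to 64.0, 59.5 and 72.7, by 18.1 points (SE 2.91, adjusted p = 0.000315), belonged to a peak whose summit lies in the adjoining region, where the same fall was called by summits. PFKFB1 had 1 fall inside the gene, at chrX:54950888-54951388, where ranks of 78.4, 80.4 and 73.2 with vehicle became 68.9, 55.3 and 56.0 at 10 nM (adjusted p = 0.00768, chosen after its values were seen).

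In lower glycolysis, 8 of 95 tested LNCaP regions rose (8.42%, with 15.7% among all regions) and 11 fell (11.6%, with 9.62%), and by summits the counts were 8 and 8. PKM, pyruvate kinase, had both. At chr15:72173843-72174343, 24.9 kb outside PKM and nearest to GRAMD2A, ranks climbed with dose. They were 0, 10.8 and 0 with vehicle, 40.4, 46.1 and 39.9 at 0.03 nM, 71.5, 65.5 and 63.9 at 0.06 nM, 80.3, 75.2 and 77.0 at 0.1 nM and 85.7, 86.9 and 91.2 at 10 nM. No 2 neighbouring doses overlapped, and the rise at 10 nM was 84.3 points (SE 5.43, adjusted p = 1.18e-07). Inside PKM, chr15:72210687-72211187 went down over the same doses, from 77.4, 80.1 and 62.9 with vehicle to 35.6, 37.1 and 0 at 0.1 nM and 9.13, 0 and 0 at 10 nM. The fall at 10 nM was 70.4 points (SE 13.5, adjusted p = 0.00119). At chr15:72184382-72184882, a fall of 19.8 points (SE 5.81, adjusted p = 0.0321) was called against the low doses, but it was lost without replicate 3, 4 or 5 of 10 nM, replicate 4 of 0.03 nM or 0.06 nM, or replicate 3 of 0.1 nM, each left out alone.

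PGAM1, phosphoglycerate mutase, likewise had sites that moved apart. At chr10:97475923-97476423, 42.7 kb outside, the vehicle libraries ranked 0, 0 and 10.6, those at 0.1 nM 61.6, 52.5 and 55.8 and those at 10 nM 79.6, 88.3 and 87.8, a rise of 81.7 points (SE 10.8, adjusted p = 6.36e-05). At chr10:97447961-97448461, 14.8 kb outside, ranks of 51.9, 52.8 and 63.1 with vehicle and 64.9, 65.4 and 65.6 at 0.03 nM gave way to no peak at 10 nM, a fall of 55.9 points (SE 8.21, adjusted p = 0.000148). Inside PGK1, chrX:78123001-78123501 was unlisted with vehicle and ranked 17.8, 42.2 and 11.1 at 0.03 nM and 76.7, 64.6 and 72.6 at 10 nM, a rise of 71.3 points (SE 10.5, adjusted p = 0.000156). ENO2 had 3 falls, including its start, and 1 rise of low rank. A fall just upstream of GAPDH against the low doses, at chr12:6533332-6533832 (adjusted p = 0.0123), belongs to the wide start peak and was not called by summits.

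Downstream of pyruvate, rises and falls were 4 and 1 in 20 tested LNCaP regions of the lactate dehydrogenases (20% and 5%). They were 2 and 2 in 35 of the carriers (5.71% each), and 4 and 3 in 52 of pyruvate dehydrogenase and its kinases (7.69% and 5.77%). Among all regions, 15.7% rose and 9.62% fell. LDHB, the form that favours pyruvate, had a site 31.4 kb upstream, chr12:21688981-21689481. It was unlisted with vehicle and at 0.03 nM, ranked 44.2, 46.8 and 18.4 at 0.1 nM and 71.1, 63.0 and 72.3 at 10 nM, and rose by 68.8 points (SE 10.9, adjusted p = 0.000269). SLC16A1, a lactate carrier, had 2 rises, with chr1:112891053-112891553 unlisted in vehicle and at 64.9, 51.9 and 42.3 at 10 nM (adjusted p = 0.0023). SLC16A3 had 2 falls, and chr17:82238729-82239229, at the start of CSNK1D, fell by 14.6 points (SE 3.40, adjusted p = 0.0049). At PDK1, which inactivates pyruvate dehydrogenase, chr2:172522382-172522882 ranked 0, 0 and 27.5 with vehicle, 21.7, 12.9 and 0 at 0.1 nM and 65.1, 67.6 and 77.9 at 10 nM, a rise of 61.0 points (SE 9.19, adjusted p = 0.000181), and its nearest gene is ITGA6. Inside PDK1, chr2:172639823-172640323 fell by 37.7 points (SE 7.51, adjusted p = 0.00162), and by summits this region turned to a rise of 39.8 while the adjoining region kept the fall. Near PDHA1, the dehydrogenase subunit, chrX:19326480-19326980 went from 59.6, 83.9 and 64.0 to 37.7, 22.5 and 22.3, a fall of 41.7 points (SE 8.86, adjusted p = 0.00261), and chrX:19336560-19337060, singled out after its values were seen, went from 46.1, 0 and 48.4 to 83.4, 84.6 and 84.0 (adjusted p = 0.000592). PDK2 and PDK3 had 1 rise each.

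**Figure D4:**
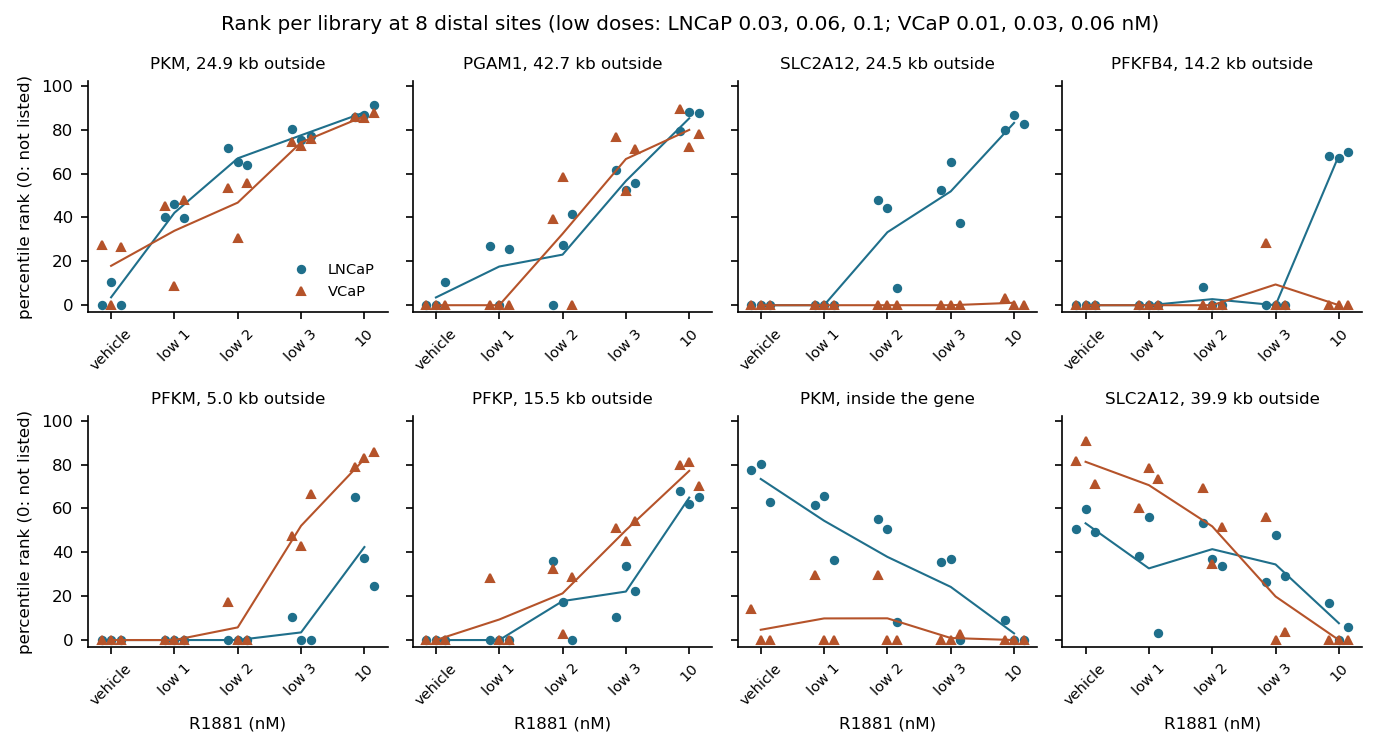
Percentile rank per library (vertical axis, 0 for not listed) at 8 distal sites against R1881 dose (horizontal axis, nM), LNCaP in blue circles and VCaP in orange triangles, with lines through group means; distances are from the named gene's body. The PKM site outside the gene and the PGAM1 site climb in both lines, the PFKFB4 site has a peak at 10 nM in all 3 LNCaP libraries and in no VCaP library, and the last 2 panels show sites that decline.

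The number of regions called in LNCaP rose with dose. At 0.03 nM, 12 regions were higher and 2 lower (2.76% of 508, with 2.28% called among all regions), and the rises lay near SLC2A1, SLC2A3, GPI, PFKFB2, PFKFB3 and PKM. At 0.06 nM the counts were 22 and 2 (4.72%, with 5.28% among all regions), with 14 in all without replicate 3 of that dose, and at 0.1 nM 35 and 6 (8.07%, with 9.05% among all regions). Of the 62 rises at 10 nM, 12 were also called at 0.03 nM, 21 at 0.06 nM and 32 at 0.1 nM, and 39 had group means in order of dose. Peaks were absent from all vehicle libraries at 27 of the 62, and at the 5 with peaks at 10 nM alone they were absent from every library below that dose. Of the 33 falls, 1, 1 and 6 were called at the low doses, 8 had no peak left at 10 nM and 19 were in order of dose. These regions were picked by their difference at 10 nM, which fixes the ends of the order. No matching shares over all regions are given, so the counts do not set these genes apart. All comparisons with vehicle share the same 3 vehicle libraries. At 0.03 nM, no region was called when the fit held the vehicle and 0.03 nM libraries alone.

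The direct comparison of 10 nM with the mean of the low doses addresses the study's question of high against low androgen. In LNCaP it called 34 regions higher and 21 lower, 10.8% of 508 with 14.7% called among all regions. The balance turns with the ranking: the split was 47 to 5 with lists at full length and 32 to 48 when peaks were ranked by fold enrichment. It turns with the model too, as falls outnumbered rises when the replicate number was added to the fit. The rises lay near 23 genes and the falls near 12. With the rise at PFKFB4 described above, the largest were at PDK1, 66.2 points (SE 7.50, adjusted p = 2.79e-05) at chr2:172522382-172522882, and inside SLC2A1. Sites already high at the low doses, such as those at PFKFB2, gained little more: chr1:207004859-207005359 rose by 10.5 points (SE 2.46, adjusted p = 0.00849). The largest fall, 59.2 points near GAPDH at chr12:6554582-6555082 (adjusted p = 0.0156), could not be tested by summits and was named after its values were seen. The next were at PGAM1, 46.4 points (SE 6.71, adjusted p = 0.000215) at chr10:97447961-97448461, and at SLC2A1, 45.3 points (SE 8.43, adjusted p = 0.00165) at chr1:42996303-42996803. Without replicate 4 of 10 nM 28 regions were called, and without its replicate 5 31 were called, in place of 55.

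In VCaP at 10 nM, 23 regions near 16 genes were higher than with vehicle and 11 near 6 genes were lower. These are 7.85% of the 433 tested, with 8.72% called among all 142185 regions, and all 34 were distal, 11.7% of 291 with 10.2% called among all distal regions. The median difference was -0.06 points, against -0.09 over all regions, and the called rises had a median of 54.8 points and the falls of -41.2. By summits, 20 of the rises and 9 of the falls were also called. When the 5 libraries numbered 2 were left out, 29 were higher and 11 lower. The split was 30 to 5 with lists at full length. When the shallow vehicle replicates 1 and 2 were left out, a single vehicle library remained, assumed to vary like the other groups. Most of the 34 regions then lost their call. All 34 differences kept their direction and 30 were at least 0.8 times as large as reported (0.564 to 1.12 times). The remaining vehicle library was among those used to call the 34, so the kept direction is no separate support. Without replicate 1 of 10 nM 22 were called in all. Of the 23 rises, 2 had peaks in the libraries at 10 nM only, through which they entered the test, so they had to differ. By role, rises and falls were 3 and 3 of 58 tested regions for glucose transporters (5.17% each) and 2 and 1 of 38 for hexokinases (5.26% and 2.63%). Upper glycolysis had 5 and 1 of 101 (4.95% and 0.990%) and PFKFB enzymes 3 and 5 of 71 (4.23% and 7.04%). Lower glycolysis had 5 and 0 of 80 (6.25% and 0%) and lactate dehydrogenases 3 and 1 of 16 (18.75% and 6.25%). The carriers and the pyruvate dehydrogenase group had 1 rise each, of 24 (4.17%) and 45 (2.22%). Among all regions, 6.09% rose and 2.63% fell.

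The strongest VCaP rise that held by summits was near PFKM. At chr12:48151137-48151637, no vehicle library had a peak, those at 0.06 nM ranked 47.2, 42.7 and 66.4 and those at 10 nM 79.1, 82.9 and 85.6, a rise of 82.5 points (SE 12.1, adjusted p = 0.0007). Near ENO2, chr12:6968926-6969426 was unlisted with vehicle and ranked 34.1, 0 and 62.2 at 0.06 nM and 84.2, 71.9 and 84.3 at 10 nM, a rise of 80.1 points (SE 13.9, adjusted p = 0.00172), but its nearest gene is PHB2. At PFKP, chr10:3051801-3052301 went from no vehicle peak to 79.7, 81.4 and 70.4, a rise of 77.1 points (SE 13.2, adjusted p = 0.00164). All 3 libraries at 10 nM lay above every vehicle library at each of these sites. Inside SLC2A10, chr20:46714488-46714988 was unlisted with vehicle and ranked 91.6, 90.1 and 96.5 at 10 nM (adjusted p = 0.00401), but it takes the rank of the adjoining region, which went from 77.6 ± 5.19 to 92.7 ± 3.31 and was not called (adjusted p = 0.0694). Inside SLC2A12, chr6:134020857-134021357 rose likewise (adjusted p = 0.0113) but could not be tested by summits, and a region less than 1 kb away was at 49.9 with vehicle and 60.4 at 10 nM. Near HK2, chr2:74902189-74902689 was unlisted in every LNCaP library and in all VCaP libraries below 0.06 nM, and ranked 36.3, 37.7 and 29.6 at 10 nM. The rise was 34.5 points over vehicle and 33.0 points over the mean of the low doses. Both are given without a test, since the region passed the filter largely through the libraries at 10 nM.

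The largest VCaP fall that held by summits was at SLC2A12. At chr6:133947429-133947929, 39.9 kb outside the gene and nearest to TBPL1, ranks of 81.7, 90.8 and 71.3 with vehicle became 56.0, 0 and 3.55 at 0.06 nM and no peak at 10 nM, a fall of 81.3 points (SE 15.3, adjusted p = 0.00285). Inside the gene, chr6:134007192-134007692 fell from 83.8, 74.9 and 73.4 with vehicle to 37.8 ± 3.51 (SD, n = 3) at 10 nM, by 39.5 points (SE 8.20, adjusted p = 0.00544). Inside LDHB, chr12:21637997-21638497 ranked 66.2, 66.5 and 64.5 with vehicle and was unlisted at 10 nM, a fall of 65.7 points (SE 15.6, adjusted p = 0.0125). Weaker falls were seen inside HK1 at chr10:69348722-69349222 (adjusted p = 0.0308) and near PFKM at chr12:48194878-48195378 (adjusted p = 0.0162), and both were lost under several alternatives. At PFKFB3, chr10:6364849-6365349 fell by 18.0 points (SE 3.67, adjusted p = 0.00487), which by summits was not called, with the fall called in the adjoining region.

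At the VCaP low doses little was called in the fit without replicate numbers. More regions were called at 0.03 and 0.06 nM when the replicate number was added to the fit. At 0.01 nM limma called 0 of 433 regions, with 32 at an unadjusted p under 0.05 and 0.0295% called among all regions, and at 0.03 nM it called 0, with 38 at an unadjusted p under 0.05 and 0.23% called among all regions. At 0.06 nM, 6 regions were higher and 0 lower (1.39%, with 1.02% called among all regions), near PFKM, PFKFB3, PGAM1, PKM and LDHA, and by summits those near PFKFB3, PGAM1 and LDHA were called, 1 for each gene. Without replicate 1, 2 or 4 of 0.06 nM, 1, 0 and 0 were called, and without vehicle replicate 2 or 4, 2 and 10. The site near PFKFB3 at chr10:6110457-6110957, which is nearest to RBM17, ranked 26.6, 0 and 49.9 with vehicle and 83.1, 77.2 and 74.4 at 0.06 nM, a rise of 52.7 points (SE 10.7, adjusted p = 0.0246). Upstream of LDHA, chr11:18384149-18384649 ranked 82.3, 67.6 and 71.2 with vehicle, 91.7, 89.4 and 93.6 at 0.06 nM and 93.8, 93.2 and 97.7 at 10 nM, and rose by 17.9 points (SE 3.59, adjusted p = 0.0235) at 0.06 nM. Both were chosen after their values were seen. All 6 were also called at 10 nM. Group means were in order of dose at 22 of the 23 rises at 10 nM and at 2 of the 11 falls. At 16 of these rises no vehicle library had a peak, so vehicle could not rank above any dose. No share over all regions is given for the order of dose. Against the mean of the low doses, 13 regions were higher and 4 lower at 10 nM (3.93%, with 5.15% called among all regions). Without replicate 1 or 4 of 10 nM, 9 and 11 were called in all. Near PFKM, chr12:48193625-48194125 ranked 46.9, 40.5 and 42.6 at 10 nM and was unlisted in the other 12 VCaP libraries. It and the PGAM1 region chr10:97382896-97383396 are the 2 called regions that entered the test only through the libraries at 10 nM, so no test is given for them. Other rises over the low doses were called inside HK1 and at SLC16A1, where chr1:112891053-112891553 rose by 18.9 points (SE 4.38, adjusted p = 0.0143).

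Of the 363 regions tested in both lines, 44 were called higher at 10 nM in LNCaP, 18 in VCaP and 15, near 11 genes, in both. The shared rises are 34.1% of the LNCaP and 83.3% of the VCaP rises tested in both lines, close to the 32.1% and 82.5% over all 108542 regions tested in both. The genes were GPI, HK1, LDHA, PDK1, PFKFB3, PFKM, PFKP, PGAM1, PKM, SLC16A1 and SLC2A3. At the PKM site chr15:72173843-72174343, VCaP ranked 27.3, 0 and 26.5 with vehicle, 74.2, 72.5 and 75.9 at 0.06 nM and 85.9, 85.2 and 87.5 at 10 nM, a rise of 68.3 points (SE 12.9, adjusted p = 0.00292). At the PGAM1 site chr10:97475923-97476423, VCaP went from no vehicle peak to 89.3, 72.4 and 78.1, a rise of 79.9 points (SE 14.8, adjusted p = 0.00262). At the PDK1 site chr2:172522382-172522882, VCaP ranked 75.9, 52.2 and 66.7 at 10 nM with no vehicle peak, a rise of 64.9 points (SE 13.1, adjusted p = 0.00451). Inside PFKFB3, chr10:6287332-6287832 ranked 72.7, 68.6 and 58.9 with vehicle and 92.1, 83.7 and 89.0 at 10 nM in LNCaP, and 0, 0 and 47.3 and 88.3, 95.1 and 92.7 in VCaP, both called and chosen after their values were seen. Another 5 regions, near PFKFB3 and SLC2A12, were called lower in both, 21.7% of 23 LNCaP falls and 50% of 10 VCaP falls, against 14.3% and 53.8% over all regions.

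**Figure D5:**
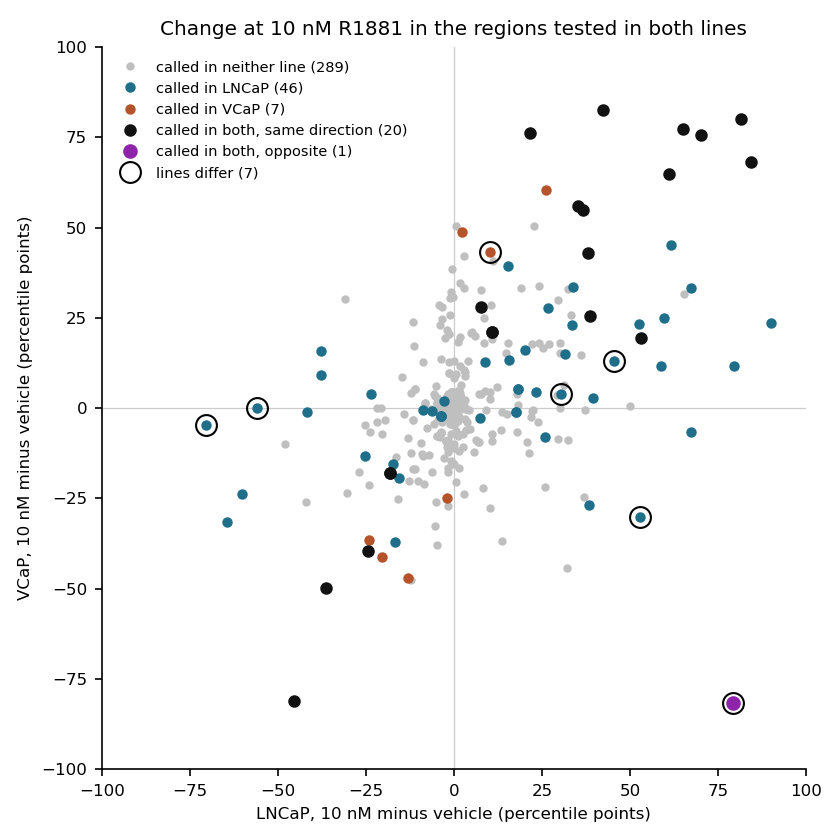
Difference in percentile rank between 10 nM and vehicle in LNCaP (horizontal) and VCaP (vertical) for the 363 regions tested in both lines, coloured by where each was called; rings mark the 7 regions whose change differed between the lines. Of the regions called in both lines, 20 share a direction and 1, at PFKFB4, is opposite.

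LNCaP and VCaP differed in their change at 10 nM for 7 of the 363 regions, 1.93% with 2.48% called among all 108542 regions tested. More of the 363 differed when the replicate number was added to the fit. Inside PFKFB4, at chr3:48558086-48558586, 1.53 kb from a start, LNCaP went from no peak to 80.03, 79.3 and 78.5 and VCaP from 97.5, 69.2 and 78.3 to no peak, a difference of -161 points (SE 32.8, adjusted p = 0.00701). By summits the VCaP fall alone was not called. At the PFKFB2 site chr1:207004859-207005359 VCaP ranked 84.2, 90.8 and 78.6 with vehicle and 87.5, 92.6 and 85.3 at 10 nM, and the VCaP change was smaller by 26.5 points (SE 4.48, adjusted p = 0.00121). At the PGAM1 site chr10:97447961-97448461, no VCaP library with vehicle or 10 nM had a peak, and the LNCaP fall exceeded the VCaP change by 55.9 points (SE 10.4, adjusted p = 0.00323). At the PFKM site chr12:48193625-48194125, the VCaP change exceeded the LNCaP change by 33.2 points, given without a test since the region entered it in VCaP only through the libraries at 10 nM. Without the VCaP libraries numbered 2, 16 regions differed, without both shallow vehicle libraries, which leaves 1 VCaP vehicle library, 1 did, and leaving out any 1 library gave from 3 to 11.

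Some sites belonged to a single line. Of the 250 regions listed in all 15 LNCaP libraries, 12 (4.80%, against 7.19% of all such regions) had no peak in any VCaP library, and of 175 listed in all VCaP libraries, 4 (2.29%, against 3.73%) had none in LNCaP. Near ENO2, chr12:6961155-6961655 ranked from 88.5 to 96.2 in LNCaP, with PTPN6 as the nearest gene. Near PDK2, chr17:50151837-50152337 ranked from 89.0 to 95.3, and near PFKFB4, chr3:48502807-48503307 from 77.4 to 92.7. Inside SLC2A1, chr1:42949177-42949677 ranked from 39.9 to 71.3. In VCaP, the site with the highest mean rank was near HK2, chr2:74940122-74940622, from 71.0 to 92.9, followed by SLC2A3, chr12:7970701-7971201, from 61.0 to 89.3. Beside LDHA, chr11:18411941-18412441, at the start of LDHC, ranked from 29.8 to 64.0. Lists were shortened to 134750 peaks in LNCaP and 104726 in VCaP, and the part of list length in these differences was not tested.

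Other genes of glucose and pyruvate metabolism, a list of 47 (further transporters and hexokinases, the citrate cycle entry, gluconeogenesis and regulators), gave 87 rises and 64 falls in 715 tested LNCaP regions at 10 nM (21.1%, with 25.3% called among all regions). VCaP gave 36 and 12 in 575 (8.35%, with 8.72% among all regions). At HIF1A, the hypoxia-inducible regulator of many glycolytic genes, chr14:61711367-61711867 fell in both lines, from 91.5 ± 1.81 to 54.9 ± 6.25 in LNCaP (adjusted p = 4.76e-06) and from 89.1 ± 3.66 to 45.8 ± 12.8 in VCaP (adjusted p = 0.000983). At PPARGC1A, a coactivator of mitochondrial biogenesis, chr4:24496586-24497086 rose in LNCaP from no peak to 91.3 ± 1.62 (adjusted p = 6.86e-08), while another region, chr4:23956493-23956993, fell in VCaP from 78.2 ± 13.1 to no peak (adjusted p = 0.000829). Near PDHX, a component of the pyruvate dehydrogenase complex, chr11:34911068-34911568 rose in LNCaP from a mean of 6.32 to 88.4 ± 2.78 (adjusted p = 1.59e-07). Near PDK4, a pyruvate dehydrogenase kinase, chr7:95623414-95623914 rose in VCaP from no peak to 82.2 ± 4.57 (adjusted p = 0.000197) and could not be tested by summits. Near HK3, chr5:176922850-176923350 fell in LNCaP from 79.5 ± 3.55 to 0.472 ± 0.818 (adjusted p = 4.76e-07).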

How the data were processed

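Peak lists of 30 libraries (15 LNCaP, 15 VCaP) were used. The submitters' processing notes name build GRCh38 and, with no order or role, deepTools 3.5.1, MACS2 2.2.7.1, Trimmomatic 0.39 and BWA 0.7.17. The authors deposited 1 narrowPeak list per library, without pooling replicates, and each entry has a score (10 times the −log10 p, cut to a whole number), a fold enrichment at the summit, a −log10 p, a −log10 q and a summit offset. Lists hold entries down to a −log10 p of 2. LNCaP lists held from 135254 to 223998 entries and VCaP lists from 105034 to 170787. Read depth is unknown, so no counting interval can be given.

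Summits were grouped into 443798 regions that reach 250 bp to each side of a summit. Each library's list was shortened to the shortest of its line (134750 or 104726 entries), and peaks were ranked by −log10 p as percentiles. A region took the highest percentile among the peaks that share 1 bp or more with it. This makes libraries comparable but removes any global change in openness. limma 3.58.1 (trend and robust options, R 4.3.3) fitted a mean for each group to all 15 libraries of a line and tested differences two-sided, with Benjamini-Hochberg adjustment at 0.05 over the 188359 (LNCaP), 142185 (VCaP) or 108542 (both lines) regions tested. Python 3.11.15, numpy 2.4.6 and pandas 2.3.3 built the tables, and the fit was also run on simulated data. That run drew normal noise around region means, unlike groups with no peak in any library. Its outcome is not given here.

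The listed genes, marker lists and tests were chosen with earlier results of these data known. Named regions were those with groups that do not overlap and the smallest p for each gene and direction, up to the 8 largest differences each way per line. To these were added the smallest p of the line difference and the one-line sites of highest rank, while regions outside this rule are said to be chosen after their values were seen. Alternatives changed the ranking, list length, overlap rule, filter, model, replicate block and libraries included. The summit scoring and the fit without the VCaP libraries numbered 2 were added after seeing the data. Sequences around distal summits are not printed here.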

Additional observations from a re-analysis of the deposited data

Results flagged for a closer look

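The change from vehicle to 10 nM differed between VCaP and LNCaP at 7 regions, tested as an interaction in limma over all regions tested in both lines. The values below are the VCaP change minus the LNCaP change, in percentile points. Inside PFKFB4 the region chr3:48558086-48558586 gave -161 (adjusted p = 0.00701), with a peak gained in LNCaP and lost in VCaP. Near ALDOA, chr16:30112700-30113200, which is nearer to GDPD3, gave -82.9 (adjusted p = 0.0409) and could not be tested by summits. Upstream of PFKFB2, chr1:207009943-207010443 gave -32.6 (adjusted p = 0.0267) and chr1:207004859-207005359 gave -26.5 (adjusted p = 0.00121). Near PFKM, chr12:48193625-48194125 gave 33.2 (adjusted p = 0.027), but it entered the test in VCaP only through the libraries at 10 nM. Near PGAM1, chr10:97447961-97448461 gave 55.9 (adjusted p = 0.00323). No VCaP library with vehicle or 10 nM had a peak there, so the value is the LNCaP fall alone. Leaving out VCaP libraries cannot change it, and VCaP had no peak to lose. Inside PKM, chr15:72210687-72211187 gave 65.7 (adjusted p = 0.0355), where LNCaP fell and VCaP had a peak in 1 of 3 vehicle libraries and none at 10 nM. Without the VCaP libraries numbered 2, the differences at PFKFB4 (-167, adjusted p = 0.0169), PFKFB2 (-25.5, adjusted p = 0.00314, and -27.9, adjusted p = 0.0405) and PGAM1 (55.9, adjusted p = 0.0111) were still called. Without both shallow vehicle libraries, which leaves 1 VCaP vehicle library, PGAM1 was called (55.9, adjusted p = 0.0375), and PFKFB4 (-158, adjusted p = 0.0743), PFKM (33.2, adjusted p = 0.153) and both PFKFB2 regions (-20.6, adjusted p = 0.0507, and -23.3, adjusted p = 0.329) were not. The PFKFB2 region at 207009943 lost its call in 11 of 24 settings, 8 of which leave out 1 library: LNCaP vehicle replicate 3 or 4, LNCaP 10 nM replicate 4 or 5, VCaP vehicle replicate 1 or 2, or VCaP 10 nM replicate 2 or 4. The PFKM region lost its call in 7 of 16 settings, among them without LNCaP vehicle replicate 3 or 4 and without LNCaP 10 nM replicate 3 or 5.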

How the results depend on the processing

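Counts are called regions, and the cause of each shift was not tested. With only the groups compared in the fit, the LNCaP counts were 0 at 0.03 nM (14 as reported) and 10 at 0.06 nM (24), and the VCaP count at 0.06 nM was 0 (6). Log2 summit pileups at regions listed in all 15 libraries, which test fewer regions, gave 3 at 0.03 nM, 26 at 0.1 nM (41), 26 for 10 nM against low doses (55) and 46 against vehicle (95) in LNCaP, and 5 at 0.03 nM (0), 8 against low doses (17) and 14 against vehicle (34) in VCaP. The 50000 strongest entries gave 8, 26, 34 and 62 for the same LNCaP comparisons and 2 at 0.03 nM in VCaP. Ranking by fold enrichment gave 9 at 0.03 nM and 145 at 10 nM (52 higher, 93 lower) in LNCaP, and 32 higher and 48 lower against the low doses. A stricter cut on the deposited entries (−log10 q of 5 or more) gave 9 at 0.03 nM in LNCaP, and in VCaP 1 at 0.03 nM, 3 at 0.06 nM, 8 against low doses and 15 against vehicle. All deposited entries gave 3 at 0.03 nM and 11 at 0.06 nM in VCaP, 4 line differences (7), and splits of 94 to 9 (LNCaP, against vehicle), 47 to 5 (LNCaP, against low doses) and 30 to 5 (VCaP, against vehicle). A peak in at least 8 libraries left 4 against low doses and 20 against vehicle in VCaP and 2 line differences, and at least 1 library gave 20. Scoring the centre base gave 3 at 0.06 nM in VCaP. Without both shallow VCaP vehicle libraries, which leaves 1 vehicle library assumed to vary like the other groups, 3 were called at 0.06 nM, 5 at 10 nM and 1 line difference, and 2 of 19 named VCaP results kept their call. Without all VCaP libraries numbered 2, 1 was called at 0.01 nM, 1 at 0.03 nM and 16 line differences.

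The replicate block gave 87 for LNCaP 10 nM against low doses (40 higher, 47 lower), 74 higher and 57 lower against vehicle, 2 and 12 at 0.03 and 0.06 nM in VCaP and 20 line differences. All 60 named results kept their call in it. The labels do not say what a number shares. Correlations of same-numbered deviations from the group means ran from -0.158 to 0.472 (median 0.123) in LNCaP and from 0.0751 to 0.334 (median 0.152) in VCaP. For pairs of different numbers the medians were -0.0947 (highest 0.314) in LNCaP and -0.107 (highest 0.112) in VCaP. The counts in the report are from the fit without the block, by a chosen cut of 0.1 that not all same-numbered values passed. In VCaP all same-numbered values were nevertheless positive. LNCaP samples correlated best with their own number in 11 of 15 libraries and VCaP samples in 15 of 15. This is a sign of pairing, clearest in VCaP, that the reported counts do not take into account.

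Leaving out 1 library gave 10 to 17 calls at 0.03 nM, 14 to 26 at 0.06 nM, 31 to 46 at 0.1 nM, 28 to 61 for 10 nM against low doses and 79 to 111 against vehicle in LNCaP. In VCaP it gave 0 to 2 at 0.01 nM, 0 to 6 at 0.03 nM, 0 to 10 at 0.06 nM, 9 to 18 against low doses and 22 to 38 against vehicle, and 3 to 11 line differences. The largest shifts came without LNCaP 0.06 nM replicate 3 (14), LNCaP 10 nM replicates 4 and 5 (28 and 31 against low doses), VCaP vehicle replicates 1, 2 and 4 (2, 1 and 6 at 0.03 nM), and VCaP 0.06 nM replicates 1, 2 and 4 (1, 0 and 0). Without VCaP vehicle replicate 2 or 4, 2 and 10 were called at 0.06 nM, and without VCaP 10 nM replicate 1 or 4, 9 and 11 against low doses. Without VCaP vehicle replicate 4 there were 2 at 0.01 nM and 11 line differences, and without VCaP 10 nM replicate 1 there were 22 against vehicle. Of 528 values for named regions with 1 library left out, 483 kept their call. Direction turned at GAPDH chr12:6533332-6533832 against low doses (23.7, adjusted p = 0.559), PDK1 chr2:172639823-172640323 (39.8, adjusted p = 0.0073) and PFKFB3 chr10:6364849-6365349 in VCaP (23.3 against low doses, 48.5 against vehicle), all by summits, and at that PFKFB3 region with the centre base (12.6).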
